A study of Rattus norvegicus with 22 samples.

Results

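Genes of the endoplasmic reticulum (ER) stress response were followed in the lungs of rats with experimental pulmonary embolism (PE). The set holds 10 genes, chosen by name: Hspa5, Hsp90b1, Hyou1, Manf, Sdf2l1, Pdia4, Creld2, Herpud1, Xbp1 and Bhlha15. They were chosen with earlier results of these data known. All 10 were found on the array, with 11 of its 31042 gene probe sets, and are set against the 14217 genes that carry a symbol. Hyou1 has 2 probe sets, and its brighter one is given unless stated otherwise. Each of 22 male Sprague–Dawley rats gave total RNA of right lung for its own microarray. PE was induced by injecting polystyrene microspheres of 25 micron, suspended in 0.01% Tween 20, into the right jugular vein. Vehicle rats received 0.15 ml of the Tween 20 solution per 100 g body weight, Mild PE rats (PE1.3 in the labels) 1300000 microspheres in 0.10 ml per 100 g, and Severe PE rats (PE2.0) 2000000 microspheres in 0.15 ml per 100 g. Lungs were taken at 2 h or 18 h, and each time had 3 rats of Vehicle, 4 of Mild PE and 4 of Severe PE. All lungs were lavaged with 8 ml of saline before they were taken out, which removes free airspace cells. How many such cells stayed in the lungs of each group was not measured by the arrays. Ages were not given in the sources used here. Microspheres block small vessels without a clot, which limits the model.

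The ER folds secreted and membrane proteins. When unfolded chains pile up, the sensors Ern1 (IRE1), Eif2ak3 (PERK) and Atf6 start the unfolded protein response, in which a spliced Xbp1 mRNA and a cleaved Atf6 protein direct the making of more chaperones, folding enzymes and degradation factors. In the lung, alveolar type II cells and airway secretory cells, with their heavy secretory load, are known for a large ER.

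Values are log2 of the array signal after quantile normalization, where 4 is the lowest value possible, and differences are log2 differences with their standard error (SE). A gene was called when its Benjamini-Hochberg adjusted p in limma was under 0.05 and its groups differed at least 1.5-fold. The 9 type II cell markers measured had a summed level (log2 of the summed signals) of 16.99 to 17.11 in Vehicle, 17.00 to 17.04 in Mild PE and 17.08 to 17.18 in Severe PE lungs at 18 h. The brightest markers weigh most on this sum. In 18-h Severe PE versus Vehicle 1 of the 9 was called higher and 1 lower, against 610 and 798 of all 14217 genes. No member was at the lowest value on any array. On 4 arrays the 3′ probe set of Gapdh exceeded its 5′ probe set by 0.35 to 0.64, against 0.18 to 0.32 on the others. They came from Severe PE rat 1 and Vehicle rat 3 of the 2-h groups, and from Mild PE rat 4 and Vehicle rat 1 of the 18-h groups.

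Many ER stress genes carry a short element in their promoters, known from mammals as ERSE (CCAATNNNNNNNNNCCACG) or ERSE-II (ATTGGNCCACG), through which Atf6 and Xbp1 act. Promoter windows of RefSeq (build GRCr8, 250 bases before to 50 after a start site) were found for 9 of the 10 genes, all but Manf, and both strands were searched. An exact ERSE lay in the windows of 4 members, Hspa5, Hsp90b1, Creld2 and Xbp1, against 0.0657% of all 33469 windows. An exact ERSE-II lay in those of 2 members, Hyou1 and Herpud1, against 0.0508% of all windows. The stretches that hold these matches are shown with 20 bases on either side, 5′ to 3′ on the strand of the gene, since they set the members with the element apart from those without it. Capitals mark the element.
Hspa5, chr3:38452953-38453011, plus strand: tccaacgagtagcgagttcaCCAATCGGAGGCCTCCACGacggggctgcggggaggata
Hsp90b1, chr7:23012327-23012489, minus strand: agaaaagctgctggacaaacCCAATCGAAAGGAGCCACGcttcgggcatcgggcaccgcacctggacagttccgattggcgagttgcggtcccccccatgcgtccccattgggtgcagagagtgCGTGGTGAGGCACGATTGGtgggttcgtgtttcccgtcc
Creld2, chr7:121789219-121789277, plus strand: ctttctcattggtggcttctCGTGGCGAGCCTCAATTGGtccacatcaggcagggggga
Xbp1, chr14:84604538-84604596, plus strand: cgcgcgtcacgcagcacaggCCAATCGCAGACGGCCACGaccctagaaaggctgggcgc
Hyou1, chr8:53602674-53602824, plus strand: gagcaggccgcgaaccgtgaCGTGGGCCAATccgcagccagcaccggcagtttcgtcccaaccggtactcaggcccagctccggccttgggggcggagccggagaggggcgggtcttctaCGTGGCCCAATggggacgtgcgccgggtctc
Herpud1, chr19:10614801-10614851, minus strand: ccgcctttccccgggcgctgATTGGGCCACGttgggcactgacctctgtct

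Hsp90b1 held 2 matches of ERSE, 1 on each strand, and Hyou1 2 matches of ERSE-II, both on the strand opposite the gene. The matches lay upstream of the start site, the nearest of them in Hspa5 at −43 to −25 and in Xbp1 at −65 to −47. Sdf2l1, Pdia4 and Bhlha15 held neither element. They held the CCACG that both elements end in, as did all 9 genes and 31.6% of all windows. The first Hyou1 window also held the unfolded protein response element TGACGTGG, which overlaps its upstream ERSE-II and is in 0.595% of windows, and the other window of Hyou1 held no match of any motif searched. The bare ACGTG, part of TGACGTGG, was in the windows of Hspa5, Hyou1, Pdia4, Herpud1 and Bhlha15 and in 19.3% of all windows. Of 2 E-box forms that basic helix-loop-helix factors bind, CATATG was in no member's window (4.11% of all) and CAGCTG in those of Hspa5 and Xbp1 (15.1% of all). The annotated spans of Creld2 and Herpud1 begin upstream of these windows, so other start sites of those genes were not searched. A match describes the letters only.

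**Figure D1:**
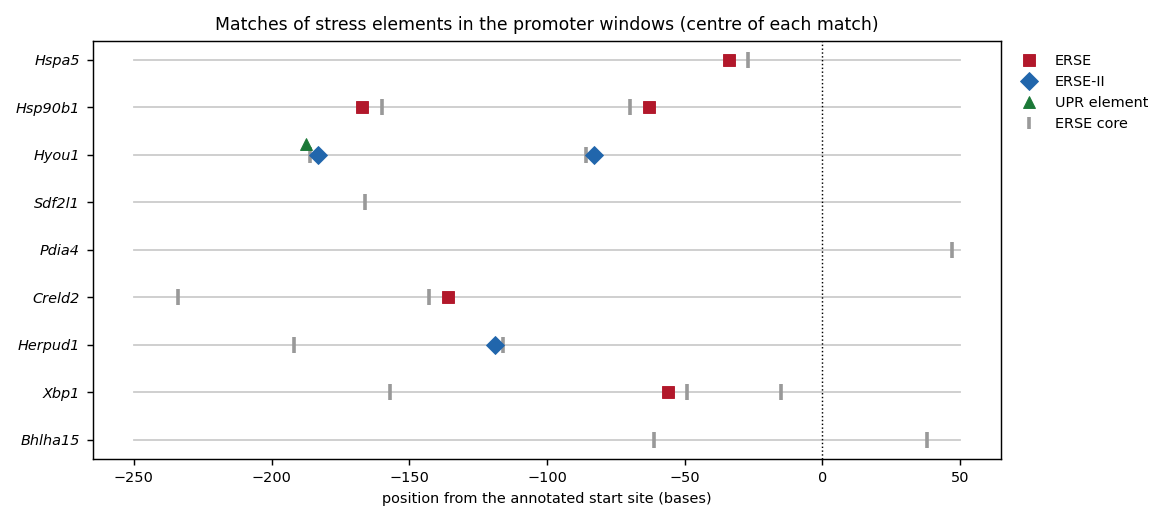
Exact matches of ERSE, ERSE-II, the unfolded protein response element and the CCACG core in the 9 member promoters of RefSeq, each symbol at the centre of its match against the distance from the annotated start site in bases. An ERSE or ERSE-II stands in 6 of the 9 genes, and Sdf2l1, Pdia4 and Bhlha15 show only the core among the 4 motifs drawn.

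Hspa5 encodes BiP, the Hsp70 chaperone of the ER lumen, which also holds the stress sensors inactive. At 18 h its signal was 11.70, 12.28 and 12.44 in the Vehicle rats, 13.17, 13.08, 12.80 and 13.61 in the Mild PE rats, and 13.46, 13.82, 13.55 and 13.71 in the Severe PE rats. Every Severe PE and every Mild PE rat stood above every Vehicle rat. Vehicle rat 1, the lowest here at 11.70, was of low 5′ signal. The mean was 13.64 ± 0.16 in Severe PE (SD, n = 4) and 12.14 ± 0.39 in Vehicle lungs (SD, n = 3), a difference of 1.5 (SE 0.20, 2.83-fold, adjusted p = 0.0149). In a whole-lung sample, more RNA per cell and more cells of a type cannot be told apart.

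Hsp90b1 (GRP94) is the Hsp90 chaperone of the ER. Its 18-h signal was 10.85, 11.57 and 11.56 in Vehicle, 11.83, 11.77, 11.78 and 12.05 in Mild PE, and 12.44, 12.35, 12.10 and 12.27 in Severe PE rats. The 3 groups did not overlap, and Severe PE exceeded Vehicle by 0.96 (SE 0.20, 1.95-fold, adjusted p = 0.0424). The lowest Vehicle rat was rat 1, whose 5′ signal was low. This call held without that rat (difference 0.73) but was lost without Vehicle rat 2 or 3 or any single Severe PE rat, with adjusted p between 0.0681 and 0.106. Hyou1 (ORP150), which exchanges the nucleotide of BiP, did not pass the test. Its brighter probe set read 10.55, 10.86 and 9.52 in Vehicle, 10.64, 11.32, 10.92 and 11.54 in Mild PE, and 11.29, 11.97, 11.64 and 11.15 in Severe PE rats. All Severe PE rats were above all Vehicle rats, but Vehicle rat 3 lay far below the others, and the difference of 1.2 had an SE of 0.37 (adjusted p = 0.111). The dimmer Hyou1 probe set gave 0.85 (SE 0.30, adjusted p = 0.143), again with Vehicle rat 3 lowest. The study itself, with another summary of the same arrays, reported Hyou1 as up-regulated in 18-h Severe PE but not in Mild PE.

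Transcripts of Sdf2l1 and Manf, whose proteins bind or work with BiP, were called higher too. Sdf2l1, a partner of BiP and the co-chaperone Dnajb11, read 11.52, 11.38 and 11.29 in Vehicle, 12.33, 12.56, 12.55 and 12.91 in Mild PE, and 13.30, 12.97, 13.02 and 13.01 in Severe PE rats at 18 h. The 3 groups were ordered by dose with no overlap. Severe PE exceeded Vehicle by 1.68 (SE 0.10, 3.2-fold, adjusted p = 0.00348) and Mild PE exceeded Vehicle by 1.19 (SE 0.14, 2.28-fold, adjusted p = 0.0372). Manf, a small ER protein that binds BiP and can be secreted, read 11.57, 11.51 and 11.48 in Vehicle, 12.11, 12.18, 12.05 and 12.76 in Mild PE, and 12.94, 12.84, 12.71 and 12.90 in Severe PE rats. Only Mild PE rat 4 reached the Severe PE range. The Severe PE difference of Manf was 1.32 (SE 0.07, 2.51-fold, adjusted p = 0.00336).

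Creld2, an ER protein released under stress, read 11.11, 10.84 and 11.03 in 18-h Vehicle, 11.34, 11.43, 11.12 and 12.02 in Mild PE, and 12.43, 12.23, 12.15 and 12.44 in Severe PE rats. Severe PE exceeded Vehicle by 1.32 (SE 0.11, 2.49-fold, adjusted p = 0.00601), and the 3 groups again did not overlap. Pdia4 (ERp72), a disulfide isomerase, read 10.38, 10.05 and 10.07 in Vehicle, 10.32, 10.41, 10.85 and 10.99 in Mild PE, and 11.58, 11.25, 10.82 and 11.14 in Severe PE rats. Mild PE overlapped both neighbours, and Severe PE exceeded Vehicle by 1.03 (SE 0.19, 2.05-fold, adjusted p = 0.0315). This call was lost without any single Vehicle rat or without Severe PE rat 2 or 4, with adjusted p from 0.0579 to 0.0938.

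Of the transcription factors, Bhlha15 was called and Xbp1 was not. Xbp1, whose spliced mRNA drives the response, had 13.55, 13.73 and 13.57 in 18-h Vehicle, 13.67, 13.68, 13.65 and 13.60 in Mild PE, and 13.67, 13.62, 13.70 and 13.74 in Severe PE rats. These ranges overlapped, and the Severe PE difference was 0.07 (SE 0.06, adjusted p = 0.574). The probe set reads the total of Xbp1 transcripts and cannot show splicing.

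Bhlha15 (MIST1), a helix-loop-helix factor of secretory cells and a known target of Xbp1, had the largest Severe PE difference of the 10 genes at 18 h. It read 6.32, 6.52 and 6.35 in 18-h Vehicle, 6.22, 6.10, 6.48 and 7.11 in Mild PE, and 8.03, 8.32, 8.15 and 8.03 in Severe PE rats. The Severe PE rats stood apart from all others, while Mild PE and Vehicle overlapped. Severe PE exceeded Vehicle by 1.74 (SE 0.09, 3.33-fold, adjusted p = 0.00336), and Mild PE exceeded Vehicle by 0.08 (SE 0.25, adjusted p = 0.931). Herpud1, an ER membrane protein of the degradation pathway, read 11.73, 11.53 and 11.31 in 18-h Vehicle, 11.23, 10.96, 11.18 and 11.43 in Mild PE, and 11.41, 11.26, 11.52 and 11.61 in Severe PE rats. Its groups overlapped, with a Severe PE difference of −0.07 (SE 0.13, adjusted p = 0.806) at 18 h and a Mild PE difference of −0.32 (SE 0.15, adjusted p = 0.315).

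**Figure D2:**
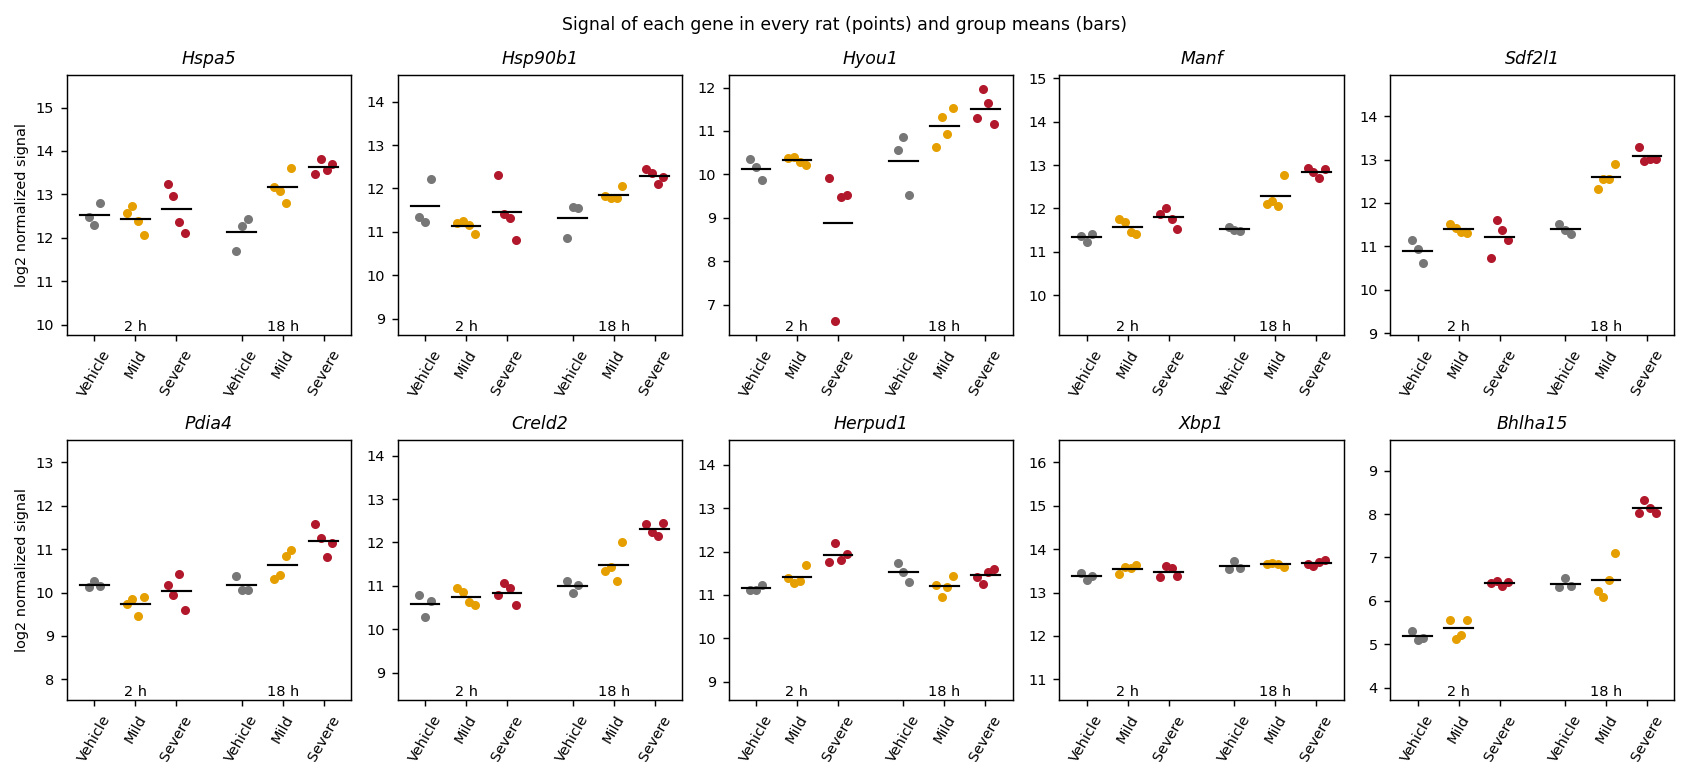
Log2 normalized signal of the 10 genes in every rat (points) with group means (bars), by dose at 2 h and at 18 h, all panels spanning the same number of log2 units. At 18 h the Severe PE points of Manf, Sdf2l1, Creld2 and Bhlha15 lie above all Vehicle points, Xbp1 is level, Herpud1 is highest in 2-h Severe PE, and 1 rat of 2-h Severe PE stands at 6.63 for Hyou1.

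Of the 10 genes, 7 were called higher in 18-h Severe PE than in 18-h Vehicle lungs and none lower, where 4.29% of all 14217 genes were called higher. The 7 were Hspa5, Hsp90b1, Manf, Sdf2l1, Pdia4, Creld2 and Bhlha15. Since the set was chosen with earlier results of these data known, its excess over the share of all genes is not independent support. The median difference was 1.26 over the 10 genes and −0.00 over all genes. With every Severe PE rat above every Vehicle rat, 8 genes did not overlap, Hyou1 among them, against 14.5% of all genes. Without the 4 arrays of low 5′ signal 6 genes were called (2.86% of all genes), with Pdia4 no longer among them (difference 1.14, adjusted p = 0.0579). Over the 3 dose groups at 18 h the moderated F test called the same 7 genes, where 10.7% of all genes were called. Under median centring Pdia4 dropped out of this F test, as it did once those 4 arrays were omitted. Pdia4 also dropped out when any single Vehicle rat, Mild PE rat 2, or Severe PE rat 1, 2 or 4 was omitted. Hsp90b1 dropped out when Severe PE rat 1, 2 or 4 was omitted.

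In 18-h Mild PE only Sdf2l1 was called higher than in Vehicle, against 0.76% of all genes. This call held without Mild PE rat 4 (1.08, adjusted p = 0.0494) but was lost without any other single rat of the comparison, with adjusted p from 0.0514 to 0.103. In 5 genes every Mild PE rat was above every Vehicle rat (10.2% of all genes), and the median member difference was 0.51. Hspa5 differed by 1.03 (SE 0.26, adjusted p = 0.113) and Manf by 0.75 (SE 0.18, adjusted p = 0.108).

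Between the doses at 18 h, all 10 genes had a higher mean in Severe than in Mild PE, with a median difference of 0.48, but none was called. In limma no gene of the array was called higher in this comparison (0%), and 7 members and 17.3% of all genes had an unadjusted p under 0.05. Severe PE rats lay wholly above Mild PE rats in Hsp90b1, Sdf2l1, Creld2 and Bhlha15, that is in 4 genes (4.9% of all genes). Bhlha15 had the largest difference of the set, 1.66 (SE 0.22, adjusted p = 0.0944). Whether the dose steps differed in shape between genes was not tested. From Vehicle to Mild PE and on to Severe PE, Hspa5 had steps of 1.03 and 0.47 and Sdf2l1 of 1.19 and 0.49. Pdia4 had steps of 0.48 and 0.55, Creld2 of 0.48 and 0.84, and Bhlha15 of 0.08 and 1.66. Those of Hsp90b1 were 0.53 and 0.43, of Hyou1 0.80 and 0.41, and of Manf 0.75 and 0.57. Herpud1 had −0.32 and 0.25, and Xbp1 0.03 and 0.04.

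Mild PE rat 4, of low 5′ signal, was the highest of its group in 9 of the 10 genes, all but Xbp1. For Bhlha15 it read 7.11, against 6.10 to 6.48 in the other Mild PE rats, and for Creld2 12.02 against 11.12 to 11.43. With this rat left out, 3 genes were called higher in Severe than in Mild PE, where 0.218% of all genes were. They were Bhlha15 (1.87, adjusted p = 0.0107), Manf (0.73, adjusted p = 0.0395) and Creld2 (1.02, adjusted p = 0.0463). Whether the 5′ signal bears on the high readings of this rat was not tested.

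At 2 h most of the set had not separated. Only Bhlha15 was called higher in Severe PE than in Vehicle, where 0.0422% of all genes were. Its signal was 5.30, 5.10 and 5.14 in Vehicle, 5.57, 5.12, 5.22 and 5.56 in Mild PE, and 6.40, 6.45, 6.35 and 6.44 in Severe PE rats. Severe PE stood apart from the other groups, by 1.23 over Vehicle (SE 0.06, 2.34-fold, adjusted p = 0.0173) and by 1.04 over Mild PE (SE 0.11, 2.06-fold, adjusted p = 0.0208). It was the only member called higher in Severe than in Mild PE (0.302% of all genes). Leaving out 1 rat kept the difference from Vehicle between 1.19 and 1.29. The call was lost without Vehicle rat 3 or any single Severe PE rat, with adjusted p from 0.0512 to 0.076. With both 2-h arrays of low 5′ signal left out it was 1.21 (adjusted p = 0.121). The difference from Mild PE was lost as a call without Mild PE rat 3 or Severe PE rat 2, 3 or 4, with adjusted p from 0.0518 to 0.0794. Its deposited signals at 2 h were low, 31.31 to 38.97 in Vehicle, 34.98 to 47.37 in Mild PE and 84.93 to 89.89 in Severe PE lungs, and with signals under 64 set to 64 the difference from Vehicle was 0.41 and not called.

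Herpud1 had its highest level of all groups in 2-h Severe PE. It read 11.11, 11.11 and 11.24 in Vehicle, 11.38, 11.28, 11.33 and 11.69 in Mild PE, and 11.77, 12.19, 11.81 and 11.94 in Severe PE rats. The 3 groups were ordered by dose with no overlap. Severe PE exceeded Vehicle by 0.78 (SE 0.11, 1.71-fold), which missed the threshold in the pairwise fit (adjusted p = 0.157), and the F test over the 3 doses called it (adjusted p = 0.0452). The F test called 2 members at 2 h, Herpud1 and Bhlha15 (adjusted p = 0.00347), and 0.978% of all genes. Herpud1 was no longer called there without any single Vehicle rat, without Mild PE rat 1, 2 or 3, or without Severe PE rat 2, 3 or 4, where 1 member was left.

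Hyou1 had its lowest values in 2-h Severe PE. It read 10.35, 10.17 and 9.88 in Vehicle, 10.38, 10.39, 10.29 and 10.22 in Mild PE, and 9.92, 6.63, 9.47 and 9.53 in Severe PE rats. Rat 2 of Severe PE was far below all others, and the dimmer probe set had its lowest value in the same rat, 5.67 against 7.62 to 8.06 in the other Severe PE rats. The difference from Vehicle was −1.25 (SE 0.84, adjusted p = 0.827), and without rat 2 it was −0.50 (SE 0.18, adjusted p = 0.825). In the dimmer probe set all Severe PE rats lay below all Vehicle rats (difference −1.03, adjusted p = 0.788). In both probe sets all Severe PE rats lay below all Mild PE rats (differences −1.44 and −1.05), and neither was called. The share of all genes with such lower ranges was not computed. In 3 members every 2-h Severe PE rat was above every Vehicle rat (4.29% of all genes), and those were Manf, Herpud1 and Bhlha15. Against Mild PE this held for 2 members, Herpud1 and Bhlha15 (4.2% of all genes).

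Hspa5 at 2 h averaged 12.67 ± 0.52 in Severe PE (SD, n = 4) and 12.53 ± 0.26 in Vehicle lungs (SD, n = 3). The highest rat of each of these groups was of low 5′ signal, Severe PE rat 1 at 13.23 and Vehicle rat 3 at 12.81. Hsp90b1 had 2 high arrays at 2 h, 12.31 in Severe PE rat 1 and 12.22 in Vehicle rat 3, both of low 5′ signal, while the other 9 rats lay between 10.81 and 11.42. In 2-h Mild PE no member was called, where 0.331% of all genes were called higher. The unadjusted limma p was under 0.05 for 3 members and 15.5% of all genes there. Sdf2l1 was higher by 0.50 (SE 0.13, adjusted p = 0.217) and Pdia4 lower by 0.44 on the log2 scale (difference −0.44, SE 0.12, adjusted p = 0.214), each without overlap of the rats. The share of all genes without overlap was not computed for this comparison.

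**Figure D3:**
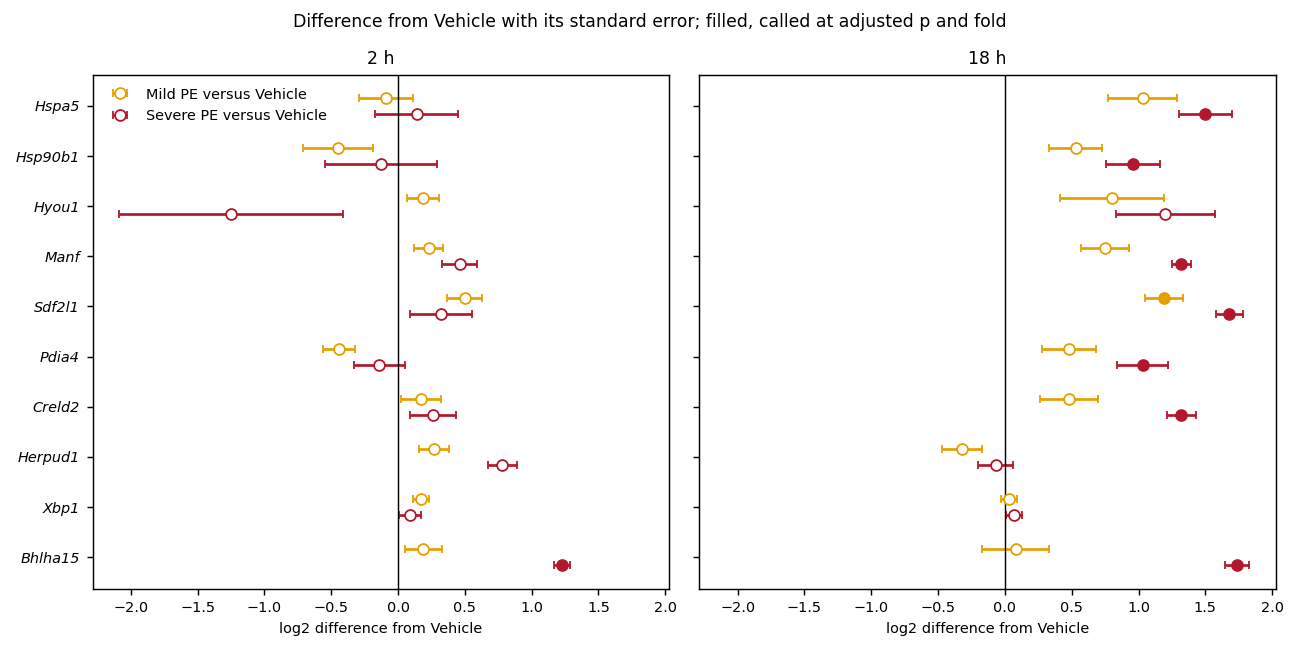
Log2 difference from Vehicle (x axis) of each gene in Mild PE and Severe PE at 2 h and at 18 h, with bars of 1 SE and filled points for genes called. Filled points are Bhlha15 in Severe PE at 2 h, and at 18 h 7 genes in Severe PE and Sdf2l1 in Mild PE.

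Whether the effect of Severe PE differed between the times was tested as a contrast on all 22 arrays. It was called more positive at 18 h in 5 members, against 3.36% of all genes. They were Hspa5 (1.36, SE 0.36, adjusted p = 0.0324), Manf (0.87, SE 0.21, adjusted p = 0.0175), Sdf2l1 (1.36, SE 0.24, adjusted p = 0.00335), Pdia4 (1.17, SE 0.29, adjusted p = 0.0204) and Creld2 (1.06, SE 0.26, adjusted p = 0.0195). Hyou1 had a larger difference that was not called (2.45, SE 0.78, adjusted p = 0.0708), and Hsp90b1 was not called at 1.10 (adjusted p = 0.115). Herpud1 was the only member called more negative at 18 h, at −0.85 (SE 0.19, adjusted p = 0.0124), against 4.86% of all genes, and Xbp1 had −0.03 (adjusted p = 0.944). For Hyou1 the difference was called without 2-h Severe PE rat 1 (2.79, adjusted p = 0.0263) or rat 2 (1.70, adjusted p = 0.024). For Bhlha15, raised at both times, the difference of the effects was 0.51 (SE 0.25, adjusted p = 0.259). The Hspa5 call was lost without any one of Severe PE rats 3 and 4 or Vehicle rats 1 and 3 of the 2-h groups, or of Severe PE rats 2 and 4 or Vehicle rat 1 of the 18-h groups, with adjusted p from 0.0538 to 0.0905, and the Creld2 call without 2-h Vehicle rat 1 (0.95, adjusted p = 0.0534). The Manf call was lost when arrays were centred on their medians in place of quantile normalization (0.86, adjusted p = 0.051). For Mild PE no member's effect was called different between the times, where 0.478% of all genes were called more positive at 18 h, and 6 members and 18% of all genes had an unadjusted p under 0.05. For Severe PE without the arrays of low 5′ signal, 6 members were called more positive at 18 h (4.35% of all genes), the 5 named and Hsp90b1 (0.83, adjusted p = 0.0318), and Herpud1 more negative.

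The Vehicle rats themselves differed somewhat between the times. No member, and no gene given by its brightest probe set, was called higher at 18 h than at 2 h (0%), and 4 members and 20.3% of all genes had an unadjusted limma p under 0.05. In 6 members every 18-h Vehicle rat was above every 2-h Vehicle rat (17.9% of all genes). Bhlha15 had the largest of these differences, with 6.40 ± 0.10 at 18 h and 5.18 ± 0.11 at 2 h (SD, n = 3 each), a difference of 1.21 (SE 0.09, adjusted p = 0.0996). The 2-h Severe PE lungs stood at 6.41 ± 0.05 (SD, n = 4), near this 18-h Vehicle level.

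Some cell type markers moved with the same groups. In 18-h Severe PE versus Vehicle, 610 of all 14217 genes were called higher and 798 lower. In that comparison the type II list had a median of 0.06, the airway secretory list −0.07 and the fibroblast list −0.25. Neutrophil markers had a summed level of 14.40 to 14.76 in Vehicle, 15.07 to 15.64 in Mild PE and 15.50 to 15.99 in Severe PE lungs at 18 h, and 1 of the 7 measured was called higher in Severe PE. Macrophage markers had 13.46 to 13.61 in Vehicle, 13.83 to 14.15 in Mild PE and 13.83 to 13.99 in Severe PE lungs. In Severe PE 6 of the 8 had a positive difference from Vehicle and 1 was called higher. Endothelial markers had 15.43 to 15.49 in Vehicle, 14.96 to 15.26 in Mild PE and 14.71 to 14.95 in Severe PE lungs (3 of 7 called lower). At 18 h the summed neutrophil and macrophage levels were thus higher in PE and the endothelial sum lower, in the groups in which the ER genes were high. The brightest markers weigh most on these sums too. In 18-h Mild PE no neutrophil, macrophage or endothelial marker was called, where 0.76% of all genes were called higher. Other lists had negative medians in 18-h Severe PE lungs. All 9 mast cell markers had a negative difference from Vehicle (median −1.09, 2 called lower), with a summed level of 11.01 to 11.51 in Vehicle, 9.95 to 11.45 in Mild PE and 9.92 to 10.72 in Severe PE lungs. All 4 B cell markers were negative (median −1.01), with Cd79b called lower, and their summed level was 14.39 to 14.60 in Vehicle, 14.40 to 14.55 in Mild PE and 14.24 to 14.44 in Severe PE lungs. All 6 muscle markers were negative (median −1.0, none called), with a summed level of 12.05 to 13.28 in Vehicle, 12.46 to 12.83 in Mild PE and 11.46 to 11.90 in Severe PE lungs. Plasma cells use Xbp1 and Bhlha15. Of their 6 markers 5 had negative differences at each dose, with a median of −0.45 in Mild PE and −0.60 in Severe PE, and none was called. Their summed level, which the brightest marker weighs on most, was 13.35 to 13.51 in Vehicle, 12.94 to 13.18 in Mild PE and 13.04 to 13.50 in Severe PE lungs. No marker of these lists was at the lowest value in all rats of a group. The part of these cell types in the ER gene values was not tested.

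Other genes were taken from lists by function, those of the ER and those of chaperones in other compartments. Together 144 genes of 153 listed were on the array. These lists too were chosen with earlier results of these data known. Of 26 folding and disulfide enzymes 10 were called higher in 18-h Severe PE than in Vehicle lungs and none lower, with a median of 0.49, where 4.29% of all genes were called higher and their median was −0.00. Dnajb11, the ERdj3 co-chaperone of BiP, differed by 1.60 (SE 0.11, adjusted p = 0.00413) and Fkbp11, a prolyl isomerase, by 1.60 (SE 0.12, adjusted p = 0.00565). Dnajc3 (p58IPK), another BiP co-chaperone, differed by 1.30 and the lectin chaperone Calr by 0.77. The list also holds Pdia3, P4hb, Pdia6, Erp44, Txndc5 and Uggt1 among its called genes. None of the 26 was called in 2-h Severe PE, where only 0.0422% of all genes were called higher and 0 lower.

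Of 32 genes of the translocon, of signal peptide cleavage and of glycan transfer, 11 were called higher at 18 h (median 0.55) and none lower, against the same 4.29% of all genes. Ostc of the oligosaccharyltransferase differed by 1.38 (SE 0.10, adjusted p = 0.00437) and the signal peptidase subunits Spcs3 by 1.30 and Sec11c by 1.10. Sec11a passed the p threshold (adjusted p = 0.00701) at 0.58, just under the fold threshold. Of 21 genes of transport between ER and Golgi 6 were called higher (4.29% of all genes), among them the cargo receptor Tmed9 (0.66), the COPII coat subunit Sec23b (0.87) and Mcfd2 (0.81). Kdelr2, the receptor that returns escaped ER proteins, differed by 0.43 (SE 0.06, adjusted p = 0.0172), under the fold threshold.

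Of 18 genes of ER-associated degradation 1 was called higher, Nploc4 (0.70, SE 0.12, adjusted p = 0.0252), a share near the 4.29% of all genes. Selenos differed by 0.50, Ube2j1 by 0.49 and Sel1l by 0.74, none of them called. Of 20 stress sensors and their factors none was called at 18 h, where 4.29% of all genes were called higher. Ppp1r15a (GADD34), a phosphatase subunit of the PERK arm, differed by 0.50 (SE 0.10, adjusted p = 0.0391), Atf4 by 0.29, Chac1 by 0.54 and the Atf6 protease Mbtps1 by −0.39. Ppp1r15a was called higher in 2-h Mild PE, by 1.12 (adjusted p = 0.0204), and differed by 0.97 in 2-h Severe PE (adjusted p = 0.157).

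Chaperones of other compartments served for comparison. None of 17 cytosolic chaperones was called in 18-h Severe PE, where 4.29% of all genes were called higher. Their median was 0.02, with Stip1 at 0.53, Hsph1 at 0.45, Cct2 at 0.24 and Dnaja1 at 0.57. In 2-h Severe PE 14 of the 17 had a positive difference from Vehicle, with a median of 0.36 and none called. Against 2-h Mild PE 16 were positive, with a median of 0.40, and Hspa1a (1.85, adjusted p = 0.0498) and Dnajb1 (1.27, adjusted p = 0.00836) were called higher, where 0.302% of all genes were. The Severe PE effect was called more negative at 18 h than at 2 h in 3 of them (4.86% of all genes), Hspa1a (−3.07, adjusted p = 0.000212), Dnajb1 (−1.27, adjusted p = 0.000368) and Bag3 (−1.03, adjusted p = 0.00184). Of 10 mitochondrial chaperones 3 were called higher at 18 h (4.29% of all genes), Hspd1 (1.34, SE 0.18, adjusted p = 0.0148), Hspa9 (1.06) and Hspe1 (0.73), and the protease Clpp differed by 0.45. In 2-h Severe PE none of the genes of the 7 lists was called against Vehicle, where only 0.0422% of all genes were called higher.

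**Figure D4:**
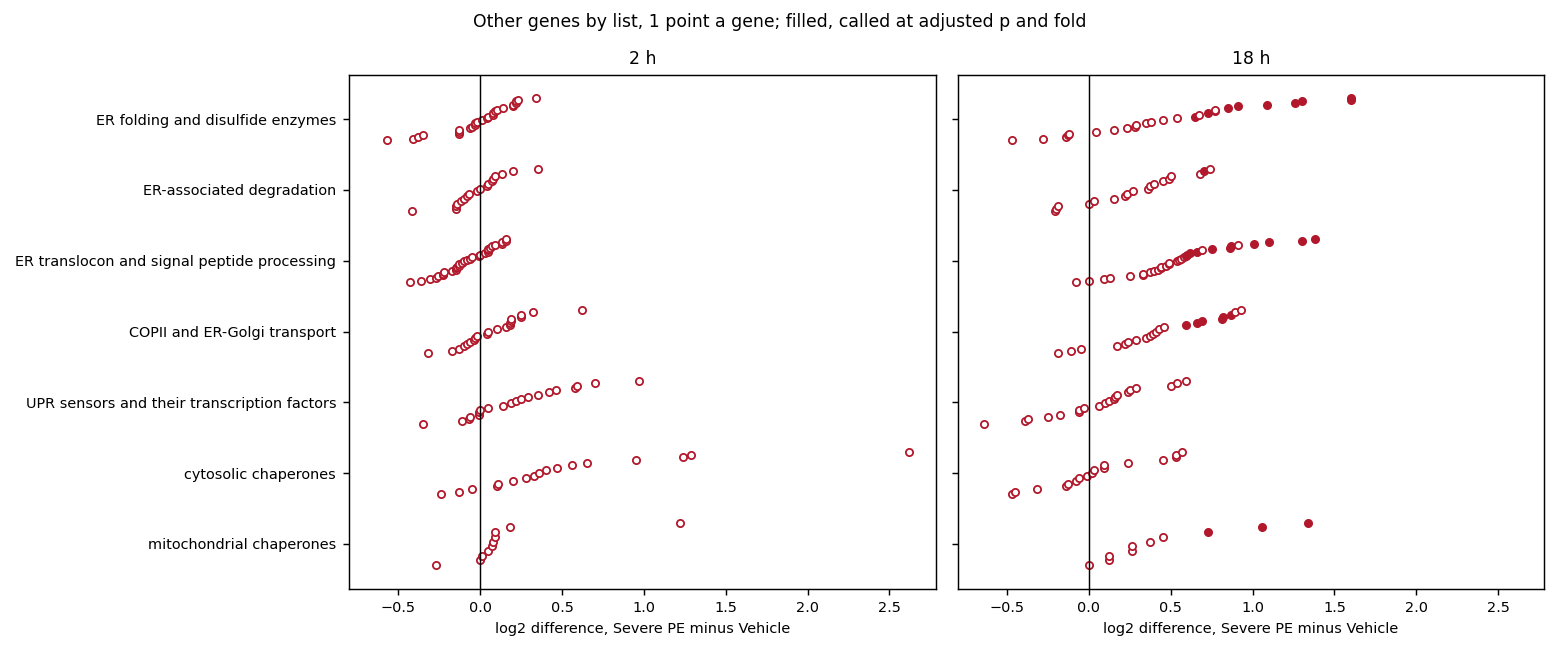
Log2 difference between Severe PE and Vehicle (x axis) for each measured gene of the 7 lists at 2 h and at 18 h, 1 point a gene, filled where called. At 18 h filled points are in the folding, translocon, transport and mitochondrial lists and 1 in the degradation list. At 2 h no point is filled, where only 0.0422% of all genes were called higher.

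Over the 22 arrays Manf followed the mean of the other 9 members most closely (r = 0.97), then Creld2 (0.96), Sdf2l1 (0.90), Bhlha15 (0.89), Pdia4 (0.85) and Hspa5 (0.80). Hsp90b1 (0.70), Xbp1 (0.58) and Hyou1 (0.46) followed it less, and Herpud1 did not (−0.15). Taken within groups, as deviations from each group's mean, r was 0.87 for Manf, 0.77 for Creld2, 0.39 for Hspa5 and −0.23 for Hyou1. For Sdf2l1 it was 0.32, for Bhlha15 0.52, for Pdia4 0.45, for Hsp90b1 0.23, for Herpud1 0.21 and for Xbp1 −0.02. The points share the 6 groups and the array normalization, so these are descriptions. The genes outside the set whose pattern was most like the mean of the 10 were B3gnt7, Dnajb11 and Mt2A (r = 0.96 each) and Saa3, Orm1 and Steap2 (0.95 each), with r between 0.29 and 0.72 within groups. Mt2A, a metallothionein, differed by 4.41 and the acute phase gene Saa3 by 4.07 between 18-h Severe PE and Vehicle lungs. Most like Bhlha15 were Zbtb48 (0.95), Imp4 (0.92) and Mro (0.91), with r of 0.38 to 0.48 within groups.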

How the data were processed

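Total RNA of right lung from 22 rats was measured on Affymetrix rat arrays, 1 per rat, in the 6 groups given above. The intensity values deposited by the authors are linear probe set signals, scaled to a trimmed mean of about 500.2 on each array (2% trimmed at each end). The methods of the study describe GC-RMA values in GeneSifter, so the values used here are another summary, and the algorithm behind it is not given in the sources used here. The number of arrays limits the precision. The 57 control probe sets were left out, signals under 16 were set to 16 (13.6% to 17.3% of probe sets per array), log2 was taken and arrays were quantile normalized. Tests used R 4.3.3 with limma 3.58.1 (lmFit and eBayes) on the 2 groups compared, on the 3 groups of a time, or as contrasts on all 22 arrays, adjusted by Benjamini-Hochberg over 31042 probe sets and checked on simulated data. Of these, 20826 had 1 symbol, 436 several and 9780 none. A gene takes its probe set of highest mean, and shares of all genes are over 14217 genes. Nothing says how rats were assigned to arrays, and p-values measure the spread between these rats. The members and lists were chosen with earlier results of these data known. Named genes are the members, up to 4 genes of smallest adjusted p in Severe PE versus Vehicle at 18 h from each list, and the 6 and 3 genes most correlated with the members' mean and with Bhlha15; other names were given after their values were seen. Alternatives were median centring, no further normalization, a floor of 64, a variance trend, omission of the dimmest probe sets, a block for replicate number, the methods' t-test, 1 fit on all 22 arrays, the mean of a gene's probe sets, and omission of each array or of the 4 with low 5′ signal. Body weight is about 350 g per the labels.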

Additional observations from a re-analysis of the deposited data

Results flagged for a closer look

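In 2-h Severe PE, Hyou1 of rat 2 was 6.63, where the nearest other rat was 9.47. This gap was 0.864 of the range of the group, above Dixon's critical value for 4 rats. It was the only such case among 40 sets of 4 rats looked at, and chance flags about 1 in 20.

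The effect of Severe PE differed between 18 h and 2 h in 6 members, by the contrast on all 22 arrays. It was larger at 18 h by 1.36 in Hspa5 (SE 0.36, adjusted p = 0.0324), 0.87 in Manf (SE 0.21, adjusted p = 0.0175), 1.36 in Sdf2l1 (SE 0.24, adjusted p = 0.00335), 1.17 in Pdia4 (SE 0.29, adjusted p = 0.0204) and 1.06 in Creld2 (SE 0.26, adjusted p = 0.0195). In Herpud1 it was −0.85 (SE 0.19, adjusted p = 0.0124). Of all genes, 3.36% were called more positive at 18 h and 4.86% more negative. As given above, the Hspa5 and Creld2 calls were lost without certain single rats, and the Manf call with median centring.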

How the results depend on the processing

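Counts are members called, and no called member changed sign under any alternative run. For most alternatives the share of all genes called was not computed, so these counts have no background beside them. For 18-h Severe PE versus Vehicle, 7 as reported, the count was 5 to 7 under the settings other than the block and 5 to 6 with 1 rat left out. Rats sharing a replicate number did not deviate together (r of −0.27 to 0.12, median −0.01), and with this number as a block 0 members were called in this comparison, though the differences stayed near those reported (Hspa5 1.47, Manf 1.31, Sdf2l1 1.7, Pdia4 1.05, Creld2 1.28, Bhlha15 1.77 and Hsp90b1 0.97, adjusted p from 0.114 to 0.212), 0 in 18-h Mild PE versus Vehicle, 0 in 2-h Severe PE versus Vehicle, 0 in 2-h Severe versus Mild PE, and 4 and 1 in the F tests at 18 h and 2 h. For 18-h Mild PE versus Vehicle, 1 as reported, the count was 0 with median centring, a floor of 64, the methods' t-test or without the low 5′ arrays, 3 in 1 fit on all 22 arrays, and 0 to 1 with 1 rat left out. For 18-h Severe versus Mild PE, 0 as reported, it was 3 without the 4 low 5′ arrays, 2 in 1 fit on all arrays, and 0 to 3 with 1 rat left out. For 2-h Severe PE versus Vehicle, 1 as reported, it was 0 with a floor of 64, which lies above the 2-h Vehicle signals of Bhlha15, with a variance trend or without the low 5′ arrays, 2 in 1 fit on all arrays, and 0 to 1 with 1 rat left out. For 2-h Severe versus Mild PE, 1 as reported, it was 0 with a floor of 64 or the methods' t-test and 0 to 1 with 1 rat left out. For Vehicle at 18 h versus 2 h, 0 as reported, it was 1 in 1 fit on all arrays. The 2-h F test, 2 as reported, called 1 with median centring, no further normalization or without the low 5′ arrays, 0 with a floor of 64, and 1 to 2 with 1 rat left out. The difference of the Severe PE effect between times, 6 as reported, numbered 4 to 8 with 1 rat left out and 5 with the block. The methods' t-test before adjustment, with the fold threshold, passed 8 members in 18-h Severe PE versus Vehicle. Its share over all genes was not computed. In limma 8 members and 33.4% of all genes had an unadjusted p under 0.05 in this comparison. The alternatives of the F tests were added after seeing the data. The causes were not tested.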
